A study of Homo sapiens and Mus musculus with 24 samples.

Results

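The alpha-globin locus was examined here as a window of 120 kb on mouse chromosome 11, from 32190000 to 32310000 in the mm10 build, set to take in the alpha-globin genes Hba-x, Hba-a1 and Hba-a2 and the gene Nprl3 with its enhancers. Every peak of the 12 deposited fetal liver lists that overlapped the window by at least 1 bp was taken, whatever its value. This gave 534 peaks of 564622 on the autosomes and chromosome X, or 0.0946%. Hemogen and BRG1 peaks that overlapped each other were merged into elements, of which the window held 47 of the 81490 in the genome. The elements are numbered 1 to 47 by rising position. No source names the build of the lists; their sequence names and positions fit mm10. Neither a mouse annotation nor a mouse genome was used here, so no element was given to a gene or to a named enhancer, and the label of the locus could not be checked against gene models.

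Haemoglobin of red cells joins alpha-like and beta-like globin chains. In the mouse alpha cluster, Hba-x encodes the embryonic zeta chain, and Hba-a1 and Hba-a2 encode the adult alpha chain from near-identical copies. Nprl3, a neighbouring gene, encodes a subunit of the GATOR1 complex that restrains mTORC1 signalling, and its introns are known to hold erythroid enhancers that act on the globin genes. These enhancers are bound in red cell precursors by GATA1, TAL1 and their partners. Hemogen is found in nuclei of blood-forming cells. BRG1 is an ATPase of the SWI/SNF (BAF) complexes, which move nucleosomes, and acetylation of histone H3 at lysine 27 (H3K27ac) marks active enhancers and promoters.

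The liver samples came from mouse embryos at day 14.5, a stage at which the liver makes red cells. BRG1 was precipitated from livers of hemogen knockout (KO) embryos and of wild-type (WT) embryos, with 2 libraries each. In livers labelled WT, hemogen was precipitated through an HA tag and H3K27ac with its own antibody, again with 2 libraries each, and input DNA was sequenced for both genotypes. The sources used here do not give the origin of the tag, the knockout allele, the strain or the number of animals behind a library, so the spread between libraries may be technical. Every hemogen peak rests on the HA antibody, and a control precipitate without the tag was not analysed here. No expression data were used, so the erythroid nature of the livers was seen only through peaks at the locus. The labels name no cell sort: fewer cells with BRG1 at a site and less BRG1 per cell cannot be told apart.

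The lists differed in length and in depth. KO BRG1 libraries 1 and 2 held 3205 and 5592 peaks on the autosomes and X, and the WT BRG1 libraries 26329 and 21165. Each group also had a group list, with 13938 peaks for KO BRG1 and 37655 for WT BRG1. The fold enrichment and p-value of a peak are the authors' own and were read only within a list. Fragment numbers were recovered from them, on the assumption that the fold is the summit height plus 1 over the local background plus 1 and that the p-value is an upper Poisson tail. The lowest background shared by several peaks of a list was 0.56 and 0.63 scaled fragments in KO libraries 1 and 2, against 2.36 and 1.91 in WT BRG1 libraries 1 and 2. The KO lists were thus called at a lower depth, and a missing KO peak is not a measured absence of BRG1.

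The window held fewer BRG1 peaks in KO liver than in WT liver, and in the lists of both genotypes it held more than the average stretch of the genome. KO BRG1 libraries 1 and 2 had 2 and 4 peaks in it and the KO group list 14, covering 510, 1094 and 3309 bp. WT BRG1 libraries 1 and 2 had 38 and 28 peaks in it and the WT group list 51, covering 21397, 14856 and 28763 bp. The genome was cut into 21896 bins of 120 kb, and the bins with at least as many peaks as the window were counted. There were 710, 292 and 58 such bins in the short KO lists, whose bins averaged 0.146, 0.255 and 0.637 peaks. In the WT BRG1 lists there were 2, 2 and 1, and the bins averaged 1.20, 0.967 and 1.72 peaks. Hemogen had 36 and 37 peaks in the window in libraries 1 and 2 and 47 in the group list. Here 15, 3 and 13 bins held at least as many. H3K27ac had 86 and 71 peaks in libraries 1 and 2 and 120 in the group list, a number reached by 9, 11 and 5 bins. The median bin held 0 peaks in all 12 lists.

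**Figure D1:**
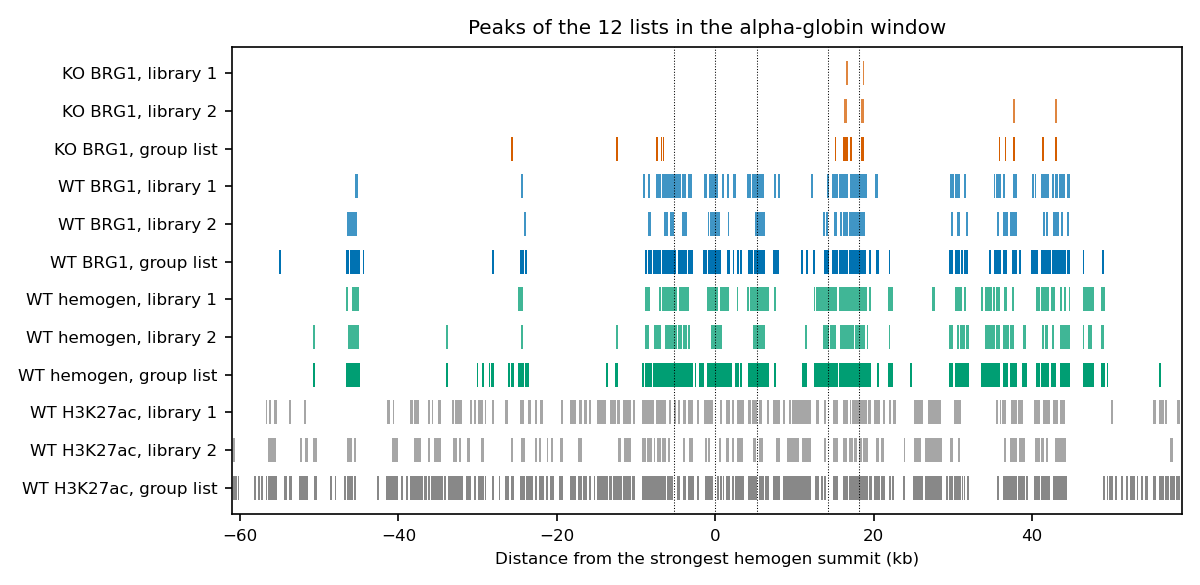
Peaks of the 12 lists across the alpha-globin window, as bars against the distance in kb from the strongest hemogen summit; dotted lines mark the 5 strongest hemogen sites. KO BRG1 bars are few, WT BRG1 and hemogen bars crowd around the 5 sites and in a further stretch on the right, and H3K27ac spreads over the whole window.

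Hemogen lay at more elements than WT BRG1, whether a peak of any list counted or both libraries had to hold one. In the second case the numbers were close, at 18 and 16. The hemogen lists were also longer over the genome, with 53055 and 42866 peaks in libraries 1 and 2, against 26329 and 21165 for WT BRG1. As a share of its list, hemogen had fewer peaks in the window, at 0.0679% and 0.0863% in libraries 1 and 2. WT BRG1 had 0.144% and 0.132%. Of the 47 elements, 41 held a hemogen peak in some list: 18 in both libraries, 10 in a single library and 13 in the group list alone. KO BRG1 lay at 10 elements: 1 in both libraries, 2 in a single library and 7 in the group list alone. WT BRG1 lay at 32 elements, 16 of them in both libraries, 6 in a single library and 10 in the group list alone. H3K27ac overlapped 41 elements, 25 of them in both libraries. The 16 elements with WT BRG1 in both libraries had a median width of 1848.5 bp, against 2181 bp for the 10177 such elements of the genome. Of these 16, 15 had hemogen in both libraries and 14 had H3K27ac in both. Element 32 had hemogen in library 2 only, and elements 3 and 34 had H3K27ac in a single library.

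The 5 strongest hemogen peaks of the group list stood in 5 of these elements. From left to right their summits lay at 32245846 (site 1, in element 16), 32251037 (site 2, element 19), 32256281 (site 3, element 22), 32265237 (site 4, element 26) and 32269160 (site 5, element 27). Neighbouring summits were 5191, 5244, 8956 and 3923 bp apart. The −log10 p of the 5 peaks in the group list was 52.5, 57.9, 41.0, 40.3 and 34.7 from site 1 to site 5. The next hemogen peak of the window, at 32286855 in element 34, had 28.5. Site 2 was the strongest, and ranked 112 among the peaks of the group list. The same 5 elements were the strongest 5 for hemogen in each library, in another order. Library 1 had elements 16, 19, 22, 27 and 26 from the strongest down, and library 2 had elements 22, 19, 16, 26 and 27. Hemogen summits of the 2 libraries lay from 50 bp left to 76 bp right of the group-list summits.

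Site 1 had a hemogen fold enrichment of 14.4 in library 1 and 5.14 in library 2. It ranked 18 in the list of library 1 and 978 in that of library 2. Site 2 had hemogen folds of 11.2 and 6.33 in libraries 1 and 2, site 3 had 10.2 and 6.89, site 4 had 9.02 and 7.24, and site 5 had 8.13 and 4.76. The fold was higher in library 1 at all 5 sites. Recovered fragments at the summit, counted before scaling, were 64 and 82 in libraries 1 and 2 at site 1 and 58 and 67 at site 2. They were 53 and 66 at site 3, 41 and 50 at site 4, and 47 and 63 at site 5. The scaling factor was 1.00 in library 1 and 0.740 in library 2. These counts therefore compare sites within a library, not heights between the libraries. The local background was higher in library 2 at all 5 sites, with 3.52 scaled fragments in library 1 and 11 in library 2 at site 1. At site 4, where the 2 folds were closest, it was 3.65 in library 1 and 4.25 in library 2. The lowest background in the 2 hemogen lists was 2.17 and 2.12. The order of the sites by fold therefore differed between libraries, while the fragments put site 1 highest and site 4 lowest in both.

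BRG1 peaks of both WT libraries covered all 5 hemogen summits. At site 1 the covering WT BRG1 peak had a fold of 10.5 in library 1, rank 40 of that list, and 2.45 in library 2. Library 2 had a stronger BRG1 peak elsewhere in the same element, with a fold of 4.57. At sites 2 to 5 the folds in library 1 were 6.07, 4.99, 4.60 and 7.43, and those in library 2 were 4.54, 4.31, 3.26 and 4.91. Fragments at the BRG1 summit were 56 in library 1 at site 1, and 39 or 41 in library 2, where 2 readings fitted. They were 38 and 36 in libraries 1 and 2 at site 2, 31 and 40 at site 3, 25 and 21 at site 4, and 42 and 35 at site 5. Site 1 had the most fragments of the 5 in library 1, and site 4 the fewest in both libraries. BRG1 summits lay within 69 bp of the hemogen summit at sites 1, 2 and 4 in both libraries. At site 3 they lay 259 bp right of it in library 1 and 29 bp left in library 2. At site 5 they lay 259 bp left in library 1 and 214 bp right in library 2. Over all elements with both factors, the strongest hemogen and BRG1 summits were a median of 176.5 bp apart in library 1 (18 elements), 338.5 bp in library 2 (16 elements) and 222.5 bp in the group lists (26 elements).

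**Figure D2:**
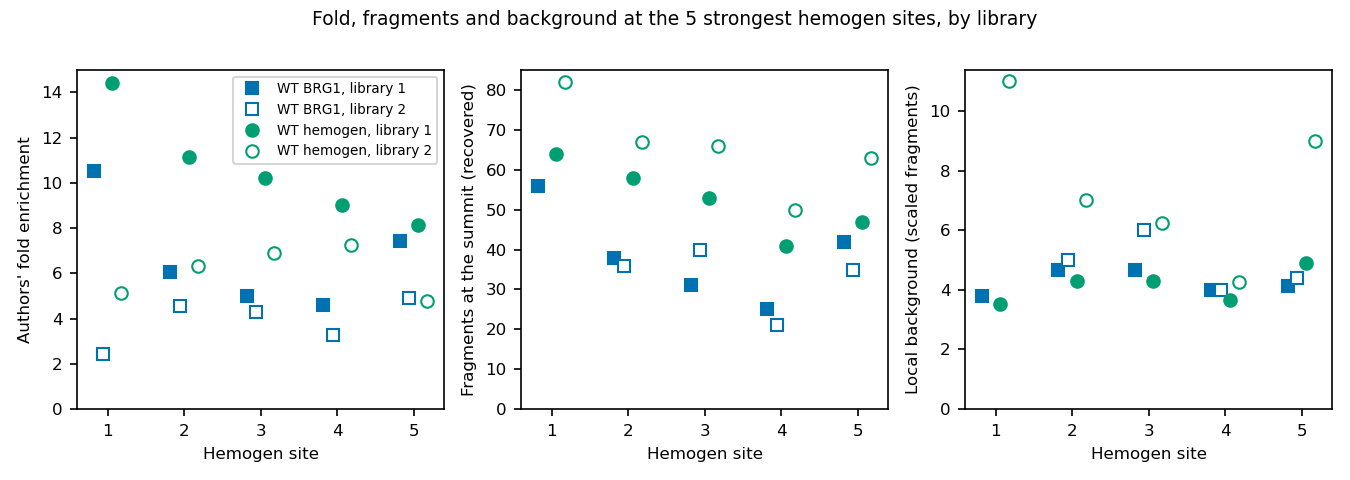
The authors' fold enrichment, the recovered fragments at the summit and the local background in scaled fragments at the 5 hemogen sites; squares are WT BRG1, circles WT hemogen, filled points library 1 and open points library 2. Hemogen folds are higher in library 1, and the open hemogen circles lie above the filled ones in the background panel. Fragments are counted before scaling and the lists have unequal scaling factors, so fragment heights are not comparable between libraries. Fragments and background of WT BRG1 library 2 at site 1 are not drawn because 2 readings fitted.

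H3K27ac lay beside the 5 sites and mostly left their summits free, at distances that differed between lists. In the H3K27ac group list the hemogen summit lay between peaks at sites 1, 2 and 4. The nearest peak edges were 151 bp to the left and 327 bp to the right at site 1, 225 and 208 bp at site 2, and 218 and 660 bp at site 4. At sites 3 and 5 the summit lay inside an H3K27ac peak of the group list. In library 1 it lay inside one at site 5 only, and in library 2 at none. At site 1 the nearest H3K27ac peak was 48 bp away in library 1 and 461 bp away in library 2. The summit of that library 1 peak lay 80 bp right of the hemogen summit. At site 3 the nearest peak was 11 bp away in library 1 and 132 bp away in library 2. The pattern of mostly free summits at the 5 sites did not hold for the window as a whole. Among hemogen peaks of the window that overlapped an H3K27ac group-list peak, the summit lay inside it in 25 of 31 (80.6%) in library 1, 23 of 34 (67.6%) in library 2 and 33 of 41 (80.5%) in the group list. The genome's shares were 67.5%, 69.9% and 64.9%. For WT BRG1 peaks the window had 28 of 36 (77.8%), 22 of 25 (88%) and 35 of 44 (79.5%), and the genome 83.8%, 86.7% and 83.2%. In the other direction, H3K27ac summits lay inside a hemogen group-list peak they overlapped in 37 of 50 (74%), 36 of 41 (87.8%) and 42 of 55 (76.4%) in the window. In the genome these shares were 86.8%, 89.2% and 83.8%. Hemogen library 2 lay below the genome's share and the other hemogen lists above it, so the 3 lists did not point one way. No test was made of these shares. Merged over the 3 lists, H3K27ac formed 119 intervals in the window, of which 59 touched no element, where the genome had 72.9%.

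**Figure D3:**
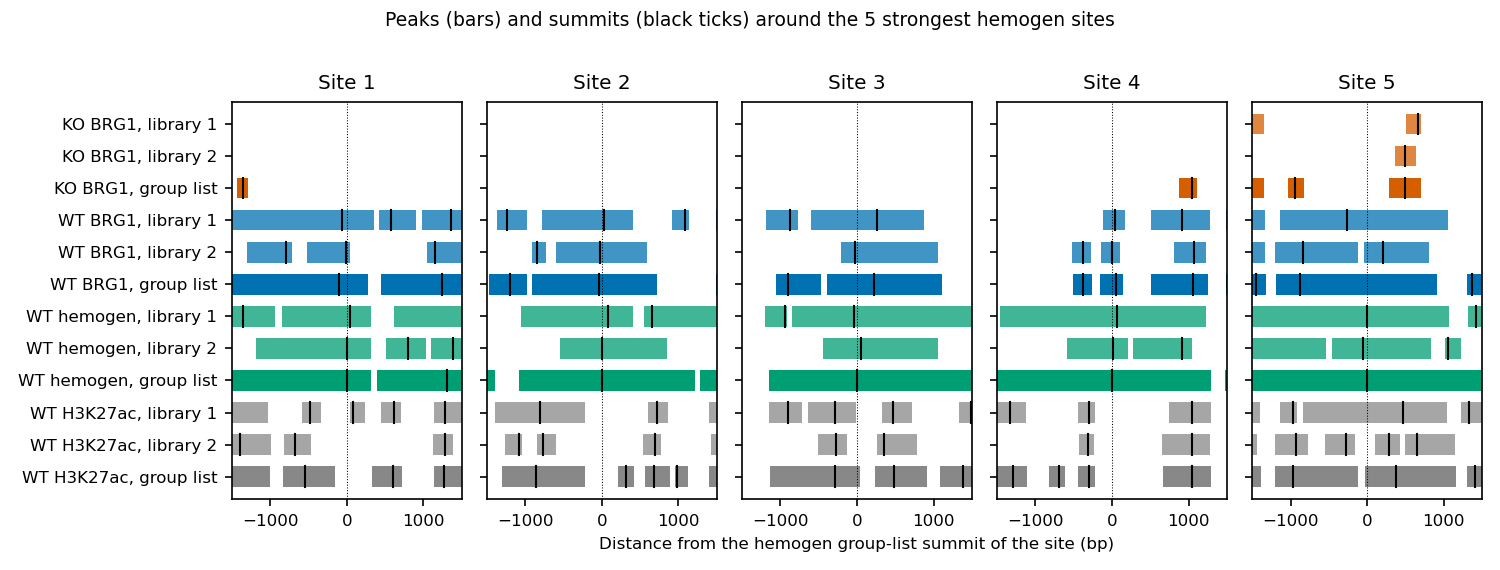
Peaks of the 12 lists around the 5 strongest hemogen summits, with distance in bp from the group-list summit; bars are peaks and black ticks their summits. Hemogen and WT BRG1 bars span the dotted line at every site, no KO BRG1 bar does, and H3K27ac bars stop short of it at sites 1, 2 and 4.

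Element 27, which holds site 5, was also the element with the strongest H3K27ac peak by −log10 p, in both libraries and in the group list. It ran from 32266714 to 32270782, and these peaks had folds of 7.20 in library 1 and 5.41 in library 2. By fold, element 27 was first in neither library. In library 1 the H3K27ac peak shared by elements 24 and 25 had a fold of 7.34. In library 2 several elements had higher folds, among them element 3 with 6.10 and element 15 with 5.92. The strongest H3K27ac peak of element 27 by −log10 p ran from 32268328 to 32270207 in library 1 and from 32267162 to 32267723 in library 2. By the −log10 p of the strongest WT BRG1 peak, it came after element 16 in library 1 and ahead of every other element in library 2. Its strongest WT BRG1 peaks had folds of 7.43 and 5.45, with 42 and 39 fragments. Element 22, with site 3, was next for H3K27ac in library 1 by −log10 p. Its fold there, 6.10, was below the 6.40 of element 19, and in library 2 it had 4.56.

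Beyond the 5 sites, another 11 elements held WT BRG1 in both libraries. They fell into stretches more than 5 kb apart. Elements 3 (32204459 to 32206180) and 12 (32226188 to 32227579) stood alone on the left. Values of an element are those of its strongest peak by −log10 p in each library, and these peaks can lie apart. Element 3 had WT BRG1 folds of 3.41 and 5.09 in libraries 1 and 2 and hemogen folds of 3.38 and 5.48. Element 12 had WT BRG1 folds of 2.75 and 3.35. Its peaks in libraries 1 and 2 ran from 32226529 to 32226823 and from 32226857 to 32227138. They did not overlap each other and were joined into 1 element through group-list peaks. Elements 15 and 17 stood beside site 1, in a stretch of 16015 bp that held sites 1, 2 and 3. WT BRG1 had folds of 3.63 and 3.27 in libraries 1 and 2 in element 15, and of 4.78 and 3.54 in element 17. In element 17 the peaks with these folds did not overlap each other. Sites 4 and 5 formed a stretch of 7342 bp. The other 7 elements, 32, 33, 34, 35, 36, 41 and 43, lay within 15353 bp on the right, from 32280563 to 32295915.

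By −log10 p, hemogen was weaker in every element of the right-hand stretch than at the 5 sites. In the group list this follows from the choice of the 5 sites as its strongest peaks. The library lists come from the same samples and are no separate check. Element 34 (32284636 to 32287118) had the strongest hemogen of the stretch, with −log10 p of 20.3 and 14.3 in libraries 1 and 2. The lowest of the 5 sites had 29.1 in library 1 (site 4) and 18.4 in library 2 (site 5). The hemogen folds of element 34 were 6.88 and 6.55, and the second of these lay within the range of the 5 sites in library 2. The peaks with these folds lay apart, with summits at 32286854 in library 1 and 32285568 in library 2. Another library 2 peak of the element, with its summit at 32286855, had a fold of 5.21. Element 35 (32287400 to 32288187) had WT BRG1 folds of 3.15 and 5.49, and element 36 (32288215 to 32289188) had 3.24 and 5.49. Fragments at the BRG1 summit, counted before scaling, were 31 and 34 in libraries 1 and 2 in element 35, and 32 and 30 in element 36. The scaling factor was 0.881 in library 1 and 0.729 in library 2, so these counts do not compare heights between libraries. The background was higher in library 1, with 8 scaled fragments in library 1 and 3.70 in library 2 in element 35. Element 41 (32292204 to 32293241) had WT BRG1 folds of 5.31 and 2.85, and element 43 (32293437 to 32295915) had 4.31 and 3.31. In element 43 the peaks with these folds did not overlap each other. H3K27ac in elements 35, 36, 41 and 43 had folds from 4.03 to 5.52 over both libraries. In elements 32 and 33 it had folds from 2.61 to 3.61, the lowest in each library among the 15 of the 16 elements with an H3K27ac peak in that library. In the group list the H3K27ac peak shared by elements 32 and 33 had a fold of 4.61, at percentile 91.0 of the list by −log10 p. There element 34 was lower, with 3.17 at percentile 50.2. Reads that fit both near-identical adult globin copies cannot be placed by sequence alone, and the sources used here give no read filter, so peaks called near such copies are uncertain.

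With all listed peaks, hemogen regions overlapped BRG1 and H3K27ac more often in the window than in the genome. Regions here are merged peaks of a group with at least 1 peak of each library. Of the 22 hemogen regions of the window, 16 (72.7%) overlapped a WT BRG1 region, against 41.6% in the genome. Likewise 16 (72.7%) overlapped an H3K27ac region, against 39.8%. Of the 20 WT BRG1 regions of the window, 15 (75%) overlapped an H3K27ac region, against 63.9%, and 19 overlapped a hemogen region, where the genome had 96.6%. With 22 and 20 regions, exact 95% binomial intervals were 49.8% to 89.3% for 72.7% and 50.9% to 91.3% for 75%. These intervals cover counting error only, and neighbouring regions are not independent. The interval for BRG1 with H3K27ac includes the genome's share, and those for hemogen lie above theirs. When every list was held to a −log10 q of at least 5, the order turned for hemogen with BRG1, with 5 of 15 regions (33.3%) in the window against 41% in the genome. BRG1 with H3K27ac was then 7 of 7 (100%), against 50.4%.

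In hemogen KO livers, BRG1 peaks were called at 8 of the 16 elements that had WT BRG1 in both libraries, or 50%. In the genome, 66.8% of 10177 such elements were called in some KO list. The exact 95% binomial interval for 8 of 16, which covers counting error only, ran from 24.7% to 75.3% and includes the genome's share. Most of the KO calls rested on the group list. Only element 27 was called in both KO libraries (1 of 16, 6.25%), against 16% of such elements in the genome. Elements 36 and 43 were called in KO library 2 as well as the group list, and elements 16, 26, 34, 35 and 41 in the group list alone. Without the group list the share was 6.25% in KO library 1 alone and 18.75% in KO library 2 alone, against 23.5% and 36.7% in the genome. With every list at a −log10 q of 5 or more, 1 of 6 elements (16.7%) was called, against 44.1%. The share of the window was thus below that of the genome under each of these rules, with at most 3 elements called, and the difference was not tested. Elements 3, 12, 15, 17, 19, 22, 32 and 33 were in no KO list. In element 12 the WT BRG1 peaks of libraries 1 and 2 did not overlap each other. By stretch, KO calls were made at neither of the 2 elements on the left and at 1 of 5 around sites 1 to 3. They were made at both elements with sites 4 and 5, though not over the 2 sites themselves, and at 5 of 7 on the right.

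The share called was close to that of WT BRG1 regions of like strength elsewhere. Strength was the highest percentile of −log10 p among a region's peaks in a WT library list, averaged over both libraries. In the genome, KO peaks overlapped 55.3% of WT BRG1 regions. From the weakest to the strongest decile of WT strength the share was 26.1%, 32.4%, 37.4%, 44.1%, 50.2%, 54.2%, 64.2%, 69.9%, 82.8% and 91.6%. In the window 9 of 20 regions (45%) were called. The genome's shares at the same deciles would give 9.62 of 20. Called regions of the window had a median strength of 63.6 (38.8 to 92.4, n = 9), and regions not called had 38.5 (21.4 to 85.0, n = 11). The strongest region, from 32266728 to 32267830 in element 27, had a strength of 92.4 and was called in all 3 KO lists. The next, from 32267951 to 32270220 in the same element, had 88.4 and was called in all 3 as well. Regions over sites 2 and 3, from 32250121 to 32251631 and from 32255677 to 32257336, had strengths of 85.0 and 79.6 and were in no KO list. The region over site 1, from 32244286 to 32246195, had a strength of 83.0 and was called in the KO group list alone. In WT library 2 its strength rests on a peak from 32244547 to 32245134, at percentile 66.2. The library 2 peak over the hemogen summit of site 1 was at percentile 11.1. The region over site 4, from 32265096 to 32265410, had a strength of 38.9 and was in no KO list. Element 26 was called through its other region, from 32265740 to 32266519.

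**Figure D4:**
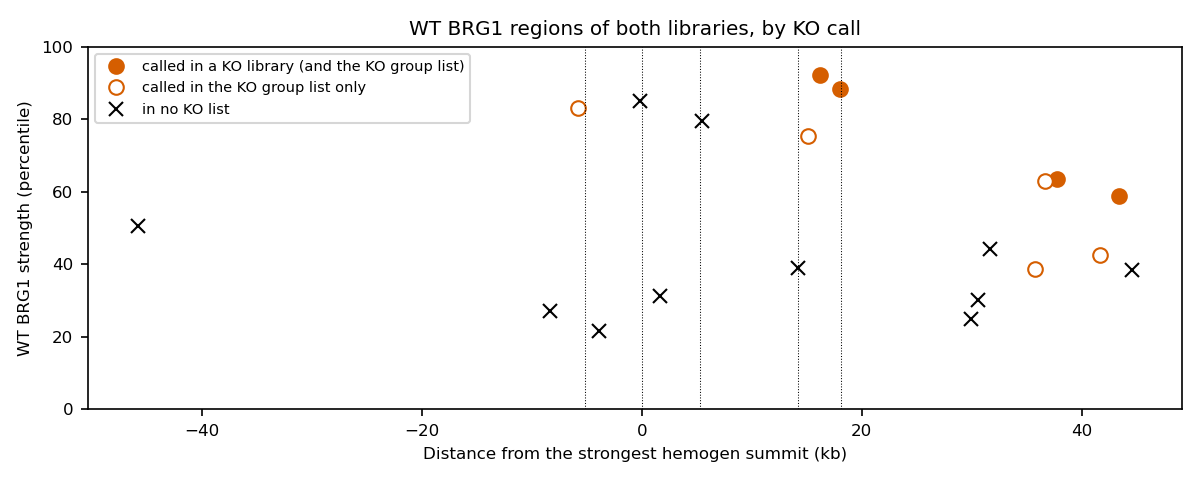
Strength of the 20 WT BRG1 regions of the window (mean percentile of −log10 p in the 2 WT libraries) against distance in kb from the strongest hemogen summit; filled circles were called in a KO library, open circles in the KO group list only, and crosses in no KO list. The 2 regions of element 27 are the highest filled circles, at 92.4 and 88.4, and the regions over sites 2 and 3 are the highest crosses, at 85.0 and 79.6.

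Where KO BRG1 was called, its peaks lay more often beside the strongest WT summit of an element than on it. No peak of any KO list covered a hemogen summit of the 5 sites. The nearest peak of the KO group list was 1288 bp away at site 1, 6479 bp at site 2, 9832 bp at site 3, 876 bp at site 4 and 285 bp at site 5. In the 8 called elements, the strongest WT BRG1 group-list summit lay inside a KO peak in 3 (37.5%), against 63.9% of the called elements of the genome. The strongest hemogen group-list summit did so in 1 of 8 (12.5%), in element 35, against 50.3%. With 8 elements these shares are imprecise, and neither difference was tested. In element 16 the 3 KO peaks lay between 32243576 and 32244558, in the left part of the element. They had folds of 3.97 to 4.43 in the KO group list, with 24 to 31 fragments at the summit. The first of them, from 32243576 to 32243762, covered a weaker WT BRG1 summit of the group list, at 32243753. In elements 34, 35, 36, 41 and 43 the nearest KO peak lay within 172 bp of the strongest WT BRG1 group-list summit. In elements 26, 27 and 36 a KO peak covered that strongest summit.

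The KO peaks stood in the lower or middle part of the 2 library lists and were spread through the group list. By −log10 p they lay at percentiles 12.9 and 33.3 of the list of KO library 1, from 11.1 to 52.5 of that of KO library 2, and from 1.21 to 86.6 of the KO group list. The highest of the group list were in elements 27 (86.6 and 80.1), 35 (82.2) and 43 (71.5). In KO library 1 the 2 peaks of element 27 had folds of 3.26 and 4.04, with 33 and 27 fragments at the summit. In KO library 2 the 2 peaks of element 27 had folds of 3.13 and 3.58 with 31 and 25 fragments. The peak of element 36 in that library had 4.24 with 18 fragments, and that of element 43 had 4.74 with 23. The median fold over the whole list was 4.46 in KO library 1 and 4.55 in KO library 2. The 14 peaks of the KO group list had folds from 3.18 to 5.03, with a median of 4.06 against 3.95 over the whole list. Of these, 12 overlapped a WT BRG1 peak of some list, where the genome had 89.1%, and all 14 overlapped a hemogen peak, where it had 93.8%. All 14 overlapped an H3K27ac peak of some list from WT liver, where the genome had 91.9%. The 2 without WT BRG1 lay in elements 11 and 14, with folds of 4.72 and 3.18, and no WT BRG1 peak overlapped either element in any list. H3K27ac in KO liver was not analysed here.

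KO BRG1 libraries held 3 ± 1.41 peaks in the window and WT BRG1 libraries 33 ± 7.07 (SD, n = 2 libraries each), with 2 and 4 in the KO libraries against 38 and 28 in the WT libraries. The groups did not overlap. By an exact permutation test, two-sided, the difference of −30 peaks had p = 0.33, which is the smallest value possible with 2 libraries against 2. Since the lists differed in length, the number was also set per 1000 peaks of the list. The KO libraries had 0.624 and 0.715 and the WT libraries 1.44 and 1.32, a ratio of means of 0.484. At a minimum −log10 q of 5 the KO libraries had 0 and 0 peaks in the window and the WT libraries 18 and 11. Depth moved with genotype, and its part in the difference was not tested. The local background under peaks of the window was a median of 7.14 and 5.15 times the lowest background in KO libraries 1 and 2, against 1.98 and 2.17 times in WT BRG1 libraries 1 and 2. Over whole lists these ratios were 5.36 and 4.76 in the KO libraries and 1.85 and 2.09 in the WT libraries.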

How the data were processed

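Libraries were prepared by chromatin immunoprecipitation, with adapters added by tagmentation or by a ligation kit, per the labels' protocols. The submitters' processing notes name MACS2 2.2.7.1, Bowtie2 2.3.5, Picard 2.21.4 and SAMtools 1.9 without roles. The authors deposited peak lists with no header, for 8 libraries and 4 groups. Each deposited peak has a score, a fold enrichment (a ratio), and a p-value and q-value as −log10; the score, 10 times the −log10 q cut to a whole number in the deposited values, was not used. The sources used here do not give controls, read filters, build or the making of group lists. Groups came from sample titles.

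Peaks sharing 1 bp or more were merged or counted as overlapping. Each peak's percentile was taken within its list. Summit heights recovered from fold and p-value were whole multiples of 1 scaling factor per list, within 0.01, for 100% of the peaks read in all 12 lists. On simulated data in 3 settings, at least 99.2% of peaks had a single reading, and fragments were recovered for 100% of those. The simulated peaks were made with the same assumed formulas, so the assumption itself was not tested. Overlaps showed 0 differences from a direct comparison. The rule for elements described 1 by 1 was a WT BRG1 peak in both libraries; the 5 hemogen sites and the stretches were singled out after their values were seen. The locus, its rule and the comparisons were chosen with earlier results of these data known. Gene names, promoters and motifs were not used here for want of a mouse annotation. Whether replicate numbers pair the libraries was not settled. Library differences in WT strength and in KO calls had r = −0.00616 over 13213 WT BRG1 regions. A KO call is only present or absent, so this value cannot exclude a pairing. Alternatives were another threshold, overlap, list choice and each library left out. Computation used SciPy 1.17.1, pandas 2.3.3 and NumPy 2.4.6 under Python 3.11.15, with Matplotlib 3.10.9 for figures.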

Additional observations from a re-analysis of the deposited data

How the results depend on the processing

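The share of WT BRG1 elements called in the KO, 50%, was 6.25% when both KO libraries had to hold a call, 16.7% (1 of 6) at a minimum −log10 q of 5 and 100% (1 of 1) with BRG1 lists trimmed to 3205 peaks, where fewer elements remain by construction. With 1 library left out it ran from 6.25% to 50%. It was 18.75% without KO library 1 and 6.25% without KO library 2, with the KO group list also left out. With the replicate block, which pairs libraries by number, it was 11.6%, the mean of 1 of 22 and 3 of 16 elements. That value also leaves out the KO group list and takes WT BRG1 elements of single libraries, so its difference from 50% is not one of pairing alone. It stayed near 50% with the group list alone, 50% overlap or library-only elements (50% to 53.3%), and was 45% over regions and 43.75% for a KO peak within 250 bp of the WT summit, both chosen after seeing the data. At −log10 q of 5, hemogen regions with BRG1 came to 33.3% (5 of 15) and BRG1 regions with H3K27ac to 100% (7 of 7); the cause was not tested. With 1 library left out, hemogen with BRG1 ran from 58.3% to 86.4%, hemogen with H3K27ac from 61.1% to 81.8% and BRG1 with H3K27ac from 75% to 80%. The peak number difference kept its sign in 8 of 8 alternatives, from −35 to −25 with 1 library left out and −30 with the replicate block.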

Other observations

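Some of the strongest H3K27ac peaks of the window touched no element. In library 1 the peak with the largest fold of its strongest 5, 7.67, ran from 32260322 to 32260651, between sites 3 and 4, and overlapped no hemogen or BRG1 peak of any list. In library 2 a peak from 32239492 to 32240380 with a fold of 6.17, and another from 32276174 to 32277009 with a fold of 5.95, overlapped none either. At the right end, element 44 (32297460 to 32298861) showed the reverse. It had hemogen in both libraries, with folds of 3.85 and 3.97, and no H3K27ac peak in any list.

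Stretches of more than 1 kb without a peak of any list numbered 6. They ran from 32190961 to 32192828, from 32200733 to 32202417, from 32203155 to 32204162, from 32206716 to 32208264, from 32283063 to 32284635 and from 32295916 to 32297459. The last 2, of 1573 and 1544 bp, lay between elements with hemogen in both libraries on either side: elements 33 and 34, and elements 43 and 44. Whether reads that fit more than 1 place were kept is not given, and gene positions were not used, so a stretch without peaks is not a measured absence of signal.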
